A study of Mus musculus with 13 samples.

Results

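Zfp961, Zfp618 and Zfp467 are 3 mouse zinc finger genes out of 24495 genes counted by bulk RNA-seq in Tet2-null embryonic fibroblasts, and they were picked by symbol because their RNA differed between cells given Tet2 and cells given an empty vector at day 5 of reprogramming. Zfp618 and Zfp467 RNA was lower with wild-type Tet2 and with a stalling mutant of Tet2, by nearly equal amounts for Zfp618 and somewhat more with the wild type for Zfp467. Zfp961 RNA was higher with both vectors, and far more so with the wild-type enzyme. All 3 genes passed the filter on low counts, which kept 14607 genes for testing. Since these day 5 differences chose the genes, they are given below as a description, and a test is given only for the comparison of empty vector cells with untreated fibroblasts.

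All cells were primary fibroblasts of the genotype Tet2-/-; OKSM; rtTA, from embryos at e12.5, with the strain background written V6.5 129XBI/6. OKSM stands for the reprogramming factors Pou5f1, Klf4, Sox2 and Myc, switched on by doxycycline through rtTA. The Tet2-WT group (n = 3, replicates 1, 2 and 250) received wild-type Tet2 in the retroviral vector pMXs, and the Tet2-E group (n = 4, replicates 1, 2, 100 and 250) received the stalling mutant in the same vector. The pMXs group (n = 3, replicates 2, 100 and 250) received the empty vector. These 3 groups were collected after 5 days at 5% oxygen on feeder fibroblasts arrested with mitomycin C, in stem cell medium with LIF (1000 U/mL), PD0325901 (1 µM, which blocks the ERK pathway), CHIR99021 (3 µM, which inhibits the kinase GSK3) and doxycycline (2 µg/mL). The Untreated group (n = 3, replicates 1, 2 and 100) stayed out of reprogramming and was labelled with the same 5% oxygen. Whether it carried the empty vector cannot be read from the labels. No sort or feeder removal is described, and the day 5 RNA is taken as that of the entire dish. Whether replicates were separate cultures is not stated either, so a p-value speaks for the spread among libraries alone, which may be technical.

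Zinc finger proteins of the C2H2 type bind DNA through repeated fingers, each held by a zinc ion, and form one of the largest families of mouse transcription factors. Many carry a KRAB domain, which recruits Trim28 and the histone methyltransferase Setdb1 to silence the bound sequence, retroviral elements among them. TET enzymes oxidise 5-methylcytosine in DNA to 5-hydroxymethylcytosine and then to further oxidised bases, and a stalling mutant is one that mainly stops at the hydroxymethyl step. ZNF618, the human counterpart of Zfp618, is known as a partner of UHRF2, a protein that binds 5-hydroxymethylcytosine. Zfp467, also called EZI, is known in mouse stromal cells for favouring adipocyte over osteoblast commitment, and was described as a protein that holds STAT3 in the nucleus. Zfp961 is known mainly by its family membership.

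The promoters are shown because TET enzymes act on methylated cytosine, which in mammals lies mainly in CG dinucleotides. Each sequence is the 250 bases before the annotated start, 5′ to 3′ on the gene's strand, from RefSeq on build GRCm38.p6, with CG in capitals. All 3 symbols matched an entry of the promoter table. The counts were made on another build (mm9), so these coordinates were not used with them.
Zfp618: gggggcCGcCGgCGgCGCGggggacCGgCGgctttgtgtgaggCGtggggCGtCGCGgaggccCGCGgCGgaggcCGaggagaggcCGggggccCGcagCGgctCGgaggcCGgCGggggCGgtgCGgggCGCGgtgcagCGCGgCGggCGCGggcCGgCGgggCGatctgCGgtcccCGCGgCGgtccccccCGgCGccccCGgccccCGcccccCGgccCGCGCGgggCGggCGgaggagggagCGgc
Zfp467: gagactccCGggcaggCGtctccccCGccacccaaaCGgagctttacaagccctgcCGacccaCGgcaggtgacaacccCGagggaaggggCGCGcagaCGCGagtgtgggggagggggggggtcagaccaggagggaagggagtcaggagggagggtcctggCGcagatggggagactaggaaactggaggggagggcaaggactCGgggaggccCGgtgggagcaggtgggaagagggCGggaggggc
Zfp961: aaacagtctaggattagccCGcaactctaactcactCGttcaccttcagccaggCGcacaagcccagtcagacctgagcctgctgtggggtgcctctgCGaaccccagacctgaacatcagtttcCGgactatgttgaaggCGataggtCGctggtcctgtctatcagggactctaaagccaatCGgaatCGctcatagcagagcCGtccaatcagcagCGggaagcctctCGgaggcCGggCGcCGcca
The Zfp618 window (chr4:62965317-62965566, + strand) held 48 CG and was 88.8% G or C, and only 0.186% of 32851 promoter windows of this length held as many CG or more. The Zfp467 window (chr6:48445091-48445340, - strand) held 15 CG at 70.4% G or C, and the Zfp961 window (chr8:71950816-71951065, + strand) also held 15 CG, at 58% G or C. A count of 15 or more was found in 27.3% of windows, and the median window held 6. Neither CACGTG (the E-box that Myc binds, in 6.02% of windows), nor ATGCAAAT (the octamer of Pou5f1, in 1.6%), nor AACAATG (a Sox2-type sequence, in 3.29%) occurred on either strand of the 3 windows. GGGCGG, the GC box of Sp1, occurred 4 times in the Zfp618 window and once in that of Zfp467, on either strand, against 32.7% of windows with at least 1 match, and it did not occur in that of Zfp961. These are matches of letters, and the motifs were chosen after the data were seen. DNA methylation was not measured in these libraries.

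Tet2 RNA was read first, as a check of the vectors. It was 1243, 1176 and 1233 counts-per-million (CPM, scaled by TMM) in Tet2-WT replicates 1, 2 and 250, and 1356, 1403, 581 and 1299 CPM in Tet2-E replicates 1, 2, 100 and 250. It was 58.8, 39.2 and 41.1 CPM in pMXs replicates 2, 100 and 250, and 37.8, 45.4 and 48.3 CPM in Untreated replicates 1, 2 and 100. The vectors were thus visible in every library labelled as carrying Tet2, and 1 Tet2-E library had less of it than the others. The log2 fold change over pMXs was 4.72 ± 0.31 with Tet2-WT and 4.65 ± 0.30 with Tet2-E (± SE, edgeR adjusted p = 3e-06 and 3.89e-05). Whole-gene counts do not read the deleted part of Tet2. Total counts were 20261396 to 25720579 in Tet2-WT, 14052646 to 26265382 in Tet2-E, 14310277 to 25326826 in pMXs and 21985590 to 25991708 in Untreated libraries.

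Zfp961 was at 73.0, 75.8 and 67.0 CPM in Tet2-WT replicates 1, 2 and 250. It was at 37.1, 42.6, 34.6 and 33.6 CPM in Tet2-E replicates 1, 2, 100 and 250, and at 30.5, 29.5 and 27.2 CPM in pMXs replicates 2, 100 and 250. In Untreated replicates 1, 2 and 100 it was at 11.8, 10.9 and 12.5 CPM. The 4 groups formed an ordered series with no overlap at any step, from Tet2-WT at the top to Untreated at the bottom. The means were 71.9 ± 4.50 CPM with Tet2-WT (SD, n = 3), 37.0 ± 4.03 with Tet2-E (n = 4), 29.1 ± 1.67 with pMXs (n = 3) and 11.8 ± 0.792 in Untreated cells (n = 3). Its raw counts ran from 217 to 2032 reads per library, the best measured of the 3 genes.

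Zfp618 was at 4.74, 4.14 and 4.63 CPM in Tet2-WT replicates 1, 2 and 250 and at 4.14, 4.64, 5.38 and 4.31 CPM in Tet2-E replicates 1, 2, 100 and 250. It was at 8.05, 7.16 and 8.28 CPM in pMXs replicates 2, 100 and 250, and at 12.3, 12.5 and 11.9 CPM in Untreated replicates 1, 2 and 100. The libraries of the 2 Tet2 vectors were mixed together, all below pMXs, and all pMXs libraries were below Untreated. Means were 4.50 ± 0.320 CPM with Tet2-WT (SD, n = 3), 4.62 ± 0.547 with Tet2-E (n = 4), 7.83 ± 0.590 with pMXs (n = 3) and 12.3 ± 0.312 in Untreated cells (n = 3). These levels rest on 67 to 296 reads per library.

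Zfp467 was at 3.19, 2.61 and 3.01 CPM in Tet2-WT replicates 1, 2 and 250 and at 4.09, 3.18, 3.77 and 3.50 CPM in Tet2-E replicates 1, 2, 100 and 250. It was at 5.83, 6.59 and 5.82 CPM in pMXs replicates 2, 100 and 250, and at 19.1, 18.7 and 17.5 CPM in Untreated replicates 1, 2 and 100. The Untreated libraries stood far above all day 5 libraries, pMXs stood above both Tet2 vectors, and the highest Tet2-WT library lay just above the lowest Tet2-E library. Means were 2.94 ± 0.296 CPM with Tet2-WT (SD, n = 3), 3.64 ± 0.386 with Tet2-E (n = 4), 6.08 ± 0.441 with pMXs (n = 3) and 18.4 ± 0.810 in Untreated cells (n = 3). The counts behind these values were 46 to 458 reads per library.

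**Figure D1:**
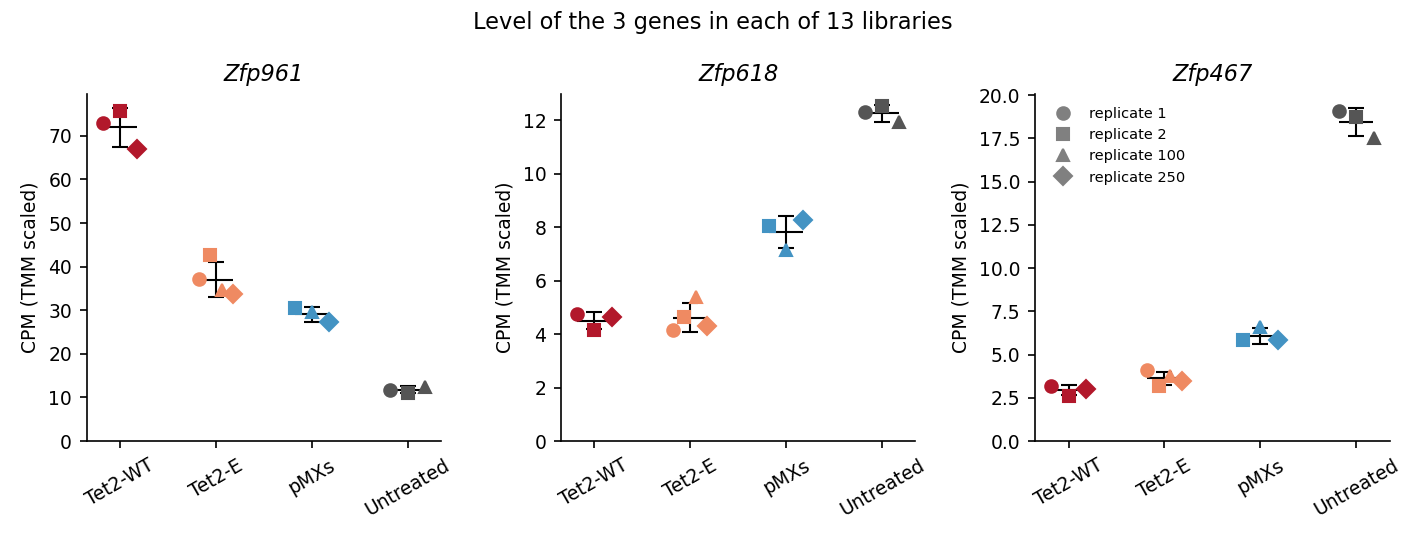
Level of each gene in CPM (vertical axis, from 0) in every library of the 4 groups, with the marker giving the replicate number and the bar giving the group mean and SD. Zfp961 steps down from Tet2-WT to Untreated with no overlap, whereas Zfp618 and Zfp467 are lowest with the Tet2 vectors and highest in Untreated cells, where Zfp467 reaches 17.5 to 19.1 CPM.

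Per kilobase of merged exon (GENCODE M21), the order of the 3 genes depended on the group. Zfp961 was the most abundant in all 3 day 5 groups, at 16.6 CPM per kb with Tet2-WT, 8.54 with Tet2-E and 6.71 with pMXs. With Tet2-WT, Zfp467 was at 0.690 and Zfp618 at 0.482 CPM per kb. With Tet2-E, Zfp467 was at 0.854 and Zfp618 at 0.494 CPM per kb, and with pMXs they were at 1.43 and 0.837. In Untreated cells Zfp467 was the most abundant, at 4.33 CPM per kb, with Zfp961 at 2.71 and Zfp618 at 1.31. Among the 333 Zfp-numbered genes tested, Zfp961 ranked 80 by its mean level over the 13 libraries (37.4 CPM, not corrected for length), Zfp467 ranked 251 (7.46 CPM) and Zfp618 ranked 259 (7.10 CPM), where the median of the family was 16.2 CPM.

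Empty vector cells at day 5 differed from Untreated fibroblasts in all 3 genes, 1 higher and 2 lower. This is the comparison on which the genes were not chosen, although its pMXs libraries are those of the comparisons that chose them. Zfp961 rose by 1.31 ± 0.10 on the log2 scale (± SE, 2.47-fold, edgeR adjusted p = 1.63e-08, higher in 3 of 3 pMXs libraries than in any Untreated library). Zfp467 had a log2 fold change of -1.59 ± 0.11 (3.02-fold lower, adjusted p = 8.6e-09), and Zfp618 one of -0.65 ± 0.12 (1.57-fold lower, adjusted p = 0.000133), both with no overlap between the libraries. The background was high, since 70.1% of all genes tested were called in this comparison, 35% higher and 35% lower, and 72% did not overlap, 36.1% higher and 35.9% lower. A count of 3 of 3 genes is therefore near what any genes gave here. Within libraries numbered 1 and 2 and within those numbered 100 and 250, the log2 fold changes were 1.42 and 1.19 for Zfp961, -1.70 and -1.48 for Zfp467 and -0.63 and -0.64 for Zfp618. Such a number class held as few as 1 library of a group.

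Wild-type Tet2 was set against pMXs next. Zfp961 was 2.47-fold higher (log2 fold change 1.30 ± 0.09, 95% interval 1.11 to 1.50), Zfp467 was 2.09-fold lower (-1.06 ± 0.13, 95% interval -1.34 to -0.79) and Zfp618 was 1.73-fold lower (-0.79 ± 0.12, 95% interval -1.06 to -0.53). The libraries did not overlap for any of the 3, as for 34.6% of all genes (17.7% higher and 16.9% lower), and 12.5% of all genes were called by edgeR at an adjusted p under 0.05. That share came from 1830 genes, against 1097 when pMXs replicate 250 was left out, 1175 for pMXs replicate 100, 1107 for Tet2-WT replicate 1 and 1135 for Tet2-WT replicate 2. Within numbers 1 and 2 and within numbers 100 and 250, the differences were 1.29 and 1.23 for Zfp961, -1.02 and -1.06 for Zfp467 and -0.86 and -0.72 for Zfp618.

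Zfp618 and Zfp467 were also lower with the stalling mutant, and Zfp961 was higher, by less than with the wild type. Zfp618 was 1.68-fold lower than in pMXs cells (log2 fold change -0.75 ± 0.12, 95% interval -0.999 to -0.503) and Zfp467 was 1.67-fold lower (-0.74 ± 0.12, 95% interval -0.996 to -0.491). Zfp961 was 1.27-fold higher (0.34 ± 0.09, 95% interval 0.15 to 0.53). All 4 Tet2-E libraries lay outside the pMXs range for each gene, as for 10.2% of all genes (5.65% higher and 4.5% lower). In this comparison 0.0479% of all genes were called, 7 genes, which became 93 with the replicate number as a block, 50 without Tet2-E replicate 100, 2 without Tet2-E replicate 2, and 1 without Tet2-E replicate 1, pMXs replicate 100 or pMXs replicate 250. Within numbers 1 and 2 and within numbers 100 and 250, the differences were 0.38 and 0.26 for Zfp961, -0.88 and -0.66 for Zfp618 and -0.66 and -0.79 for Zfp467.

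The 2 vectors differed mainly in Zfp961. It was 1.95-fold higher with Tet2-WT than with Tet2-E (log2 fold change 0.96 ± 0.08, 95% interval 0.78 to 1.14), with no overlap, as for 15% of all genes (7.48% higher and 7.54% lower). By edgeR 4.62% of all genes were called, 675 genes, against 335 when Tet2-WT replicate 1 was left out and 339 for Tet2-WT replicate 2. The value for Zfp618 was -0.04 ± 0.12, with a 95% interval of -0.30 to 0.21 that leaves room for a modest difference either way. For Zfp467 it was -0.32 ± 0.13 (95% interval -0.59 to -0.05), with overlapping libraries. Within numbers 1 and 2 and within numbers 100 and 250, the values were 0.90 and 0.97 for Zfp961, 0.02 and -0.06 for Zfp618 and -0.35 and -0.27 for Zfp467. Tet2 RNA itself was at 1217 ± 36.2 CPM in Tet2-WT and 1160 ± 388 CPM in Tet2-E libraries (SD, n = 3 and 4), with a log2 fold change of 0.07 (edgeR adjusted p = 0.964).

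**Figure D2:**
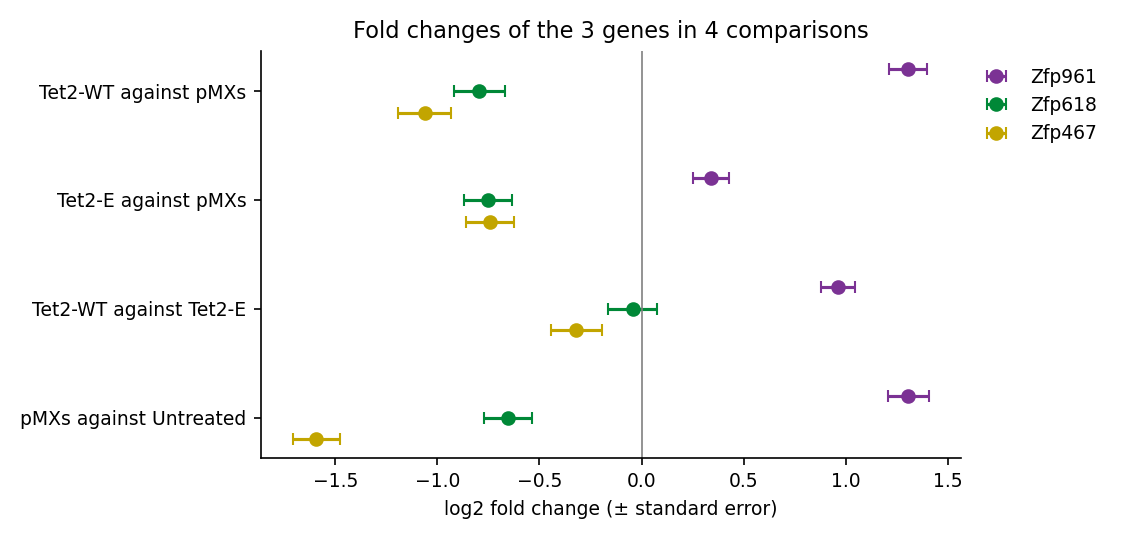
Log2 fold change of the 3 genes in the 4 comparisons (horizontal axis), with bars for the standard error from edgeR. Zfp618 sits at -0.79 with Tet2-WT and at -0.75 with Tet2-E, whereas Zfp961 sits at 1.30 and 0.34.

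Across the 13 libraries, the log2 CPM of Zfp618 and Zfp467 correlated at a Pearson r of 0.96, and Zfp961 correlated with Zfp467 at -0.95 and with Zfp618 at -0.90. Over the 10 day 5 libraries the values were 0.88, -0.83 and -0.65. These describe groups that stand apart and share libraries, and the genes were chosen for such differences. The genes most like each one were found the same way, among genes with a mean of at least 5 CPM. For Zfp961 over 13 libraries they were P2rx7, an ATP-gated ion channel (r = 0.986), Ermp1, Adam23, Mst1 and Adh7, down to an r of 0.984. P2rx7 was at 79.5 CPM in Tet2-WT, 22.2 in Tet2-E, 18.5 in pMXs and 3.11 CPM in Untreated libraries on average. For Zfp618 they were Pxdn, a peroxidase of the extracellular matrix (r = 0.976), Rnf150, Acsf2, Tspan18 and Smad3, a mediator of TGF-beta signalling (0.958). For Zfp467 they were Pcdhga6, a protocadherin (0.990), Nynrin, Stk36, Arhgef2 and Enpp1 (0.985).

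Restricting to day 5 changed these neighbours in pattern. Zfp961 then lay nearest to Gsr, glutathione reductase (r = 0.992), Atg9b, Msln, Aldh3a1 and Rapgef3, none of them among the 5 found over all libraries. Zfp618 lay nearest to Rnf150 (0.959), Yeats2, Neo1, Pxdn and Nol4l, and Zfp467 to Tmem86a (0.953), Rnf150, Pcdhga6, Snx9 and Nynrin, with 2 of 5 shared with the first search for each. Rnf150 was among the 5 nearest to both Zfp618 and Zfp467 at day 5. Gsr was at 98.7 CPM in Tet2-WT, 77.0 in Tet2-E, 67.7 in pMXs and 29.1 CPM in Untreated libraries on average, and Rnf150 at 77.9 CPM in Tet2-WT, 83.7 in Tet2-E, 106 in pMXs and 164 CPM in Untreated libraries.

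The wider zinc finger family, meaning the 330 other tested genes with a symbol of Zfp and a number, had few genes called with the vectors. With Tet2-WT against pMXs, 6 rose and 8 fell by edgeR, 4.24% against 12.5% of all genes, with a median log2 fold change of -0.04 beside 0.00 over all genes. That count of 14 became 8 without pMXs replicate 100 or Tet2-WT replicate 2, 7 without Tet2-WT replicate 1 and 4 without pMXs replicate 250. At an unadjusted p under 0.05 there were 52, and 94 did not overlap (28.5% against 34.6% of all genes). Zfp809, which silences murine leukaemia retroviruses in mouse embryonic stem cells together with Trim28, rose most of those called, at 43.5 ± 5.38 CPM with Tet2-WT and 26.1 ± 1.46 CPM with pMXs (SD, n = 3 each, log2 fold change 0.73 ± 0.11, adjusted p = 0.000378). Zfp78 (0.68), Zfp59 (0.55) and Zfp141 (0.37) were the next. Those that fell most were Zfp185, which encodes a LIM-domain protein (-1.05, adjusted p = 0.0192), Zfp9 (-0.70), Zfp608 (-0.53) and Zfp810 (-0.46, adjusted p = 0.0498).

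With Tet2-E against pMXs, 0 of the 330 were called by edgeR, 1 by DESeq2 and 1 with the replicate block. At an unadjusted p under 0.05 there were 21, and 18 did not overlap (5.45% against 10.2% of all genes). The smallest p-values were those of Zfp423, a regulator of preadipocyte commitment (-0.44 ± 0.11, adjusted p = 0.166), and Zfp395 (-0.54 ± 0.15, adjusted p = 0.217). With Tet2-WT against Tet2-E, 3 rose (Zfp809 by 0.55, Zfp59 by 0.37 and Zfp750 by 0.36) and 2 fell (Zfp810, -0.50, and Zfp9, -0.44), 1.52% against 4.62% of all genes. That count of 5 was 3 without Tet2-E replicate 1, 2 without Tet2-E replicate 100, and 1 without Tet2-E replicate 250, Tet2-WT replicate 1 or Tet2-WT replicate 2.

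Between pMXs and Untreated more of the family was called than with the vectors: 116 rose and 53 fell, 51.2% against 70.1% of all genes. The share that rose was 35.2%, near the 35% of all genes, and the share that fell was 16.1% against 35%. The median was 0.13 beside 0.00 over all genes. Zfp750, a regulator of epidermal differentiation, was at 17.4 ± 0.619 CPM in pMXs and 1.03 ± 0.105 CPM in Untreated cells (log2 fold change 4.07), Zfp536 at 14.5 and 0.604 CPM (4.56), Zfp704 at 354 and 86.7 CPM (2.03), and Zfp711 at 3.90 and 0.192 CPM. Lower were Zfp575 (-3.03), Zfp36, which encodes an RNA-binding protein of the CCCH type that hastens mRNA decay (-1.86), Zfp395 (-1.60) and Zfp503 (-1.58).

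Within the family of 333, the position of the 3 genes is a result of how they were chosen in the day 5 comparisons. Zfp961 had the highest fold change of the 333 with Tet2-WT against pMXs and against Tet2-E, and ranked 7 from the highest with Tet2-E against pMXs. Zfp618 and Zfp467 ranked 1 and 2 from the lowest with Tet2-E, and 4 and 2 with Tet2-WT. In the comparison that did not choose them, pMXs against Untreated, Zfp467 ranked 4 from the lowest, Zfp618 ranked 30 from the lowest and Zfp961 ranked 14 from the highest.

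**Figure D3:**
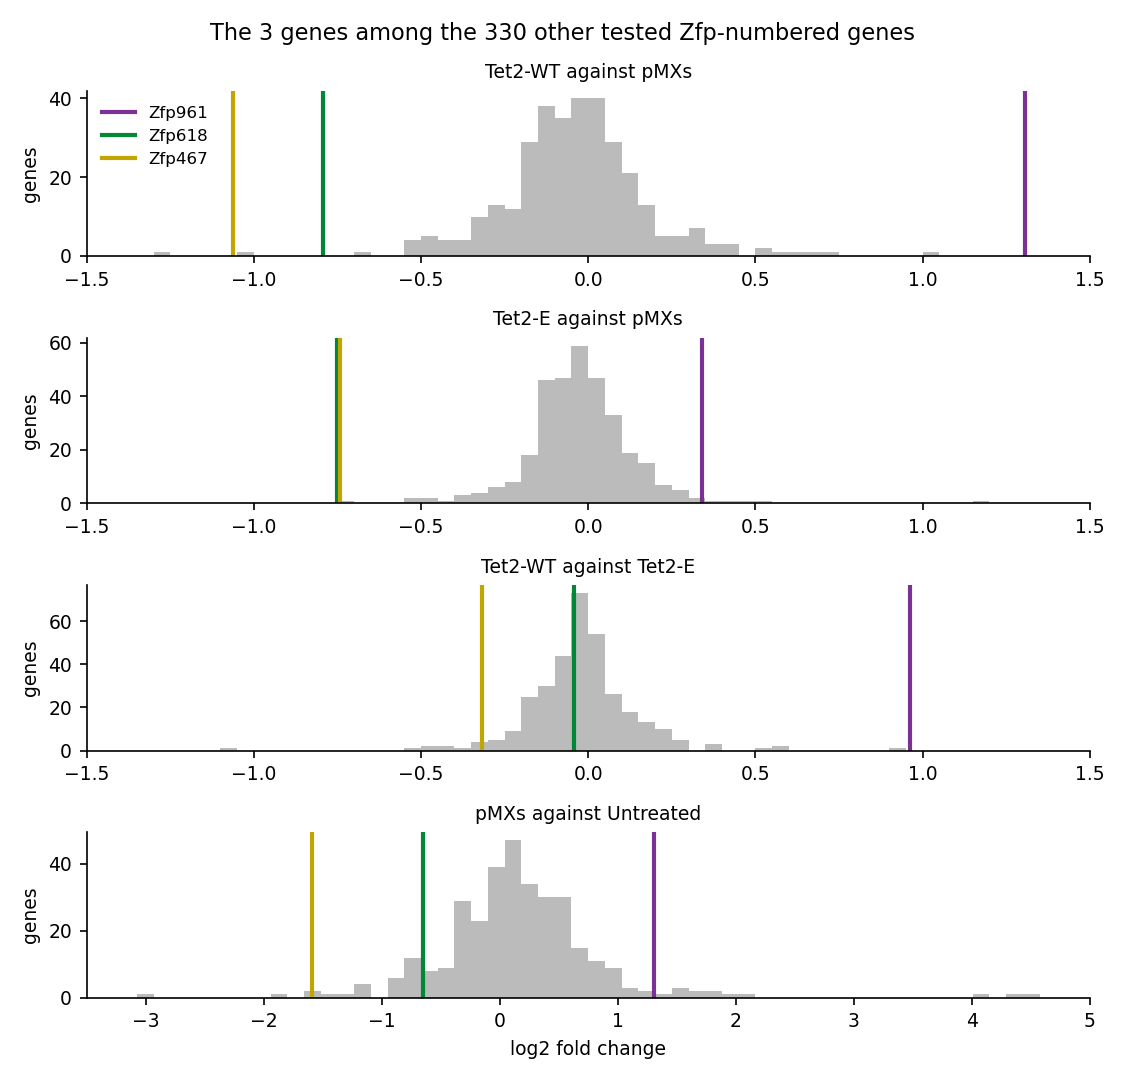
Number of the 330 other tested Zfp-numbered genes (vertical axis) by log2 fold change (horizontal axis) in each comparison, with lines for the 3 genes. The lines for Zfp618 and Zfp467 lie at the left edge in both vector comparisons, and that of Zfp961 at the right edge with Tet2-WT.

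The machinery through which KRAB zinc finger proteins act was tested as 16 genes. Between pMXs and Untreated, 12 rose and 0 fell (75% called against 70.1% of all genes, of which 35% rose and 35% fell). The methyltransferase Dnmt3b rose by 1.77, Uhrf1, which guides maintenance methylation, by 1.42, the heterochromatin protein gene Cbx1 by 0.79, Setdb1 by 0.58 and Trim28 by 0.50 on the log2 scale. With Tet2-WT against pMXs, the remodeller Chd3 (-0.39 ± 0.08, adjusted p = 0.00472) and the de novo methyltransferase Dnmt3a (-0.38 ± 0.11, adjusted p = 0.0309) fell and 14 did not pass, 12.5% called as among all genes. That count of 2 became 1 without pMXs replicate 2, pMXs replicate 250, Tet2-WT replicate 2 or Tet2-WT replicate 250. With Tet2-E against pMXs, 0 of the 16 passed in edgeR and 0 in DESeq2, and 2 had an unadjusted p under 0.05.

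For the partner of human ZNF618, Uhrf2 was at 62.3 CPM in Tet2-WT, 60.5 in Tet2-E, 62.5 in pMXs and 69.2 CPM in Untreated cells. Its log2 fold change was -0.01 ± 0.07 with Tet2-WT and -0.05 ± 0.06 with Tet2-E against pMXs, and -0.15 ± 0.07 in pMXs against Untreated (edgeR adjusted p = 0.975, 0.864 and 0.0658). Of the 17 genes listed as binding or processing 5-hydroxymethylcytosine, 8 rose and 1 fell in pMXs against Untreated (52.9% called against 70.1% of all genes). Among them Wdr76 rose by 1.83 and Sall1 by 1.80, Recql fell (-0.41), and the stem cell factor gene Sall4 was at 12.2 CPM in pMXs and 0.0498 CPM in Untreated cells. With Tet2-WT against pMXs, Tet2 itself and Hmces, a sensor of abasic sites, were called (Hmces 0.37 ± 0.12, adjusted p = 0.0466), 11.8% of the list against 12.5% of all genes. That count of 2 was 1 with the replicate block and when any pMXs library, or Tet2-WT replicate 1 or 2, was left out. For Tet2-E against pMXs the 1 gene called by edgeR was Tet2.

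Genes tied to the known roles of Zfp467 were listed next. Of 16 adipogenic genes, 11 were tested, and in pMXs against Untreated 2 rose and 7 fell (81.8% called against 70.1% of all genes). Pparg, the master regulator of adipocytes, was at 0.799 CPM in pMXs and 3.03 CPM in Untreated cells (-1.94), Lpl at 17.9 and 65.2 CPM (-1.87) and Fabp4 at 0.928 and 2.63 CPM (-1.50), while Cebpd rose by 1.29 and Klf15 by 0.71. With Tet2-WT against pMXs, Pparg rose by 1.13 (1.73 against 0.799 CPM, adjusted p = 0.0382) and Zfp423 fell (-0.39, adjusted p = 0.0422), 18.2% of the list against 12.5% of all genes, and with the replicate block 1 gene was called. That count of 2 was 1 without pMXs replicate 100, Tet2-WT replicate 1 or Tet2-WT replicate 250, and 0 without pMXs replicate 2, pMXs replicate 250 or Tet2-WT replicate 2. For Tet2-E against pMXs, 0 passed in edgeR, 2 in DESeq2 and 3 at an unadjusted p under 0.05. Cebpa had the smallest p (-0.60, adjusted p = 0.132), and Cebpa was higher with Tet2-WT than with Tet2-E (0.57, adjusted p = 0.0245). Without Tet2-E replicate 1 or 2, or without Tet2-WT replicate 1 or 2, no adipogenic gene was called between the vectors.

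Of 17 osteogenic genes, 13 were tested, and 2 rose and 9 fell in pMXs against Untreated (84.6% called against 70.1% of all genes). Sp7, a transcription factor required for osteoblasts, was at 0.254 CPM in pMXs and 3.76 CPM in Untreated cells, Phex at 0.267 and 1.84 CPM and Dlx5 at 0.752 and 3.96 CPM, whereas Alpl rose by 4.13. With Tet2-WT against pMXs, 3 fell: Spp1 (-1.06, adjusted p = 0.0215), Pth1r, the parathyroid hormone receptor (-0.71, adjusted p = 0.0117), and Tnfrsf11b (-0.41, adjusted p = 0.0322), 23.1% of the list against 12.5% of all genes. That count was 0 without Tet2-WT replicate 1 or 2 and 1 without pMXs replicate 100 or 250. With Tet2-E against pMXs, 0 passed in edgeR and 0 in DESeq2, and Pth1r stood at -0.37 (adjusted p = 0.474) as the 1 gene with an unadjusted p under 0.05. Between the vectors 0 of 13 passed in edgeR, 2 in DESeq2, 3 with the replicate block and 2 at an unadjusted p under 0.05, and the count was 1 without Tet2-WT replicate 250.

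The LIF and STAT3 pathway, tied to Zfp467 through STAT3, held 15 tested genes. In pMXs against Untreated, 7 rose and 6 fell (86.7% called against 70.1%). Klf4, among the 7 that rose (1.29), is also one of the OKSM factors. The feedback inhibitor Socs3 rose by 1.94 and the naive-state factor Tfcp2l1 by 1.92, Gbx2 was at 1.33 CPM in pMXs and 0.0613 CPM in Untreated cells, and the shared receptor chain Il6st (-1.64), Osmr (-0.90) and the STAT3 inhibitor Pias3 (-0.89) fell. With Tet2-WT against pMXs, Tfcp2l1 (0.69), Il6ra (0.68) and the kinase Jak2 (0.34) rose and Il6st (-0.69) and Lifr (-0.54) fell, a count of 5 (33.3% against 12.5% of all genes) that was 3 without pMXs replicate 100 or 250. For Tet2-E against pMXs, 0 of the 15 passed in edgeR, where Il6st stood at -0.42 (adjusted p = 0.0608). The count was 2 at an unadjusted p under 0.05, and 1 in DESeq2, with the replicate block or without Tet2-E replicate 100. Il6ra was higher with Tet2-WT than with Tet2-E (0.34, adjusted p = 0.0247). No gene was called between the vectors without Tet2-E replicate 250, Tet2-WT replicate 1 or Tet2-WT replicate 2, and 3 were called with the replicate block.

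The chromosomal neighbours of the 3 genes, 5 protein-coding genes on each side in RefSeq order, were read from the same fit. For Tet2-WT against pMXs, edgeR called 0 of 6 tested near Zfp961, 1 of 6 near Zfp618 and 1 of 9 near Zfp467, where 12.5% of all genes were called. Zfp961 on chromosome 8 lies beside the zinc finger genes Zfp617, Zfp882 and Zfp709. Of its 10 neighbours 6 were tested. By edgeR none passed in the 3 day 5 comparisons, where at an unadjusted p under 0.05 there were 2 with Tet2-WT against pMXs, 0 with Tet2-E against pMXs and 1 between the vectors. In pMXs against Untreated, B3gnt3 (-2.50), Tpm4 (-0.79) and Zfp709 (-0.37) fell, 3 of 6, where 70.1% of all genes were called and 35% were called lower. Related zinc finger genes can share reads, and how the counting treated reads with several matches is not given in the sources used here, so the levels of Zfp961 and its zinc finger neighbours are uncertain to that extent.

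Of the 10 neighbours of Zfp618 on chromosome 4, 6 were tested. Col27a1, a fibrillar collagen gene, fell with Tet2-WT against pMXs, to 6.49 against 14.4 CPM (-1.14 ± 0.12, adjusted p = 2.48e-05), and against Tet2-E (-0.78), and its value with Tet2-E against pMXs was -0.36 (adjusted p = 0.267). In pMXs against Untreated, Alad (0.53) and Pole3 (0.54) rose and Rgs3 (-0.73) fell. Of the 10 neighbours of Zfp467 on chromosome 6, 9 were tested, and Atp6v0e2, a subunit gene of the vacuolar proton pump, was the one called with Tet2-WT against pMXs (0.41 ± 0.09, adjusted p = 0.00552). It also rose in pMXs against Untreated (1.63), as did Zfp777 (0.48) and Zfp746 (0.28), while Zfp212 fell (-0.36) and Rarres2 was at 0.136 CPM in pMXs and 1.05 CPM in Untreated cells. With Tet2-E against pMXs edgeR called none of the tested neighbours of the 3 genes, of which 1, near Zfp618, had an unadjusted p under 0.05.

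**Figure D4:**
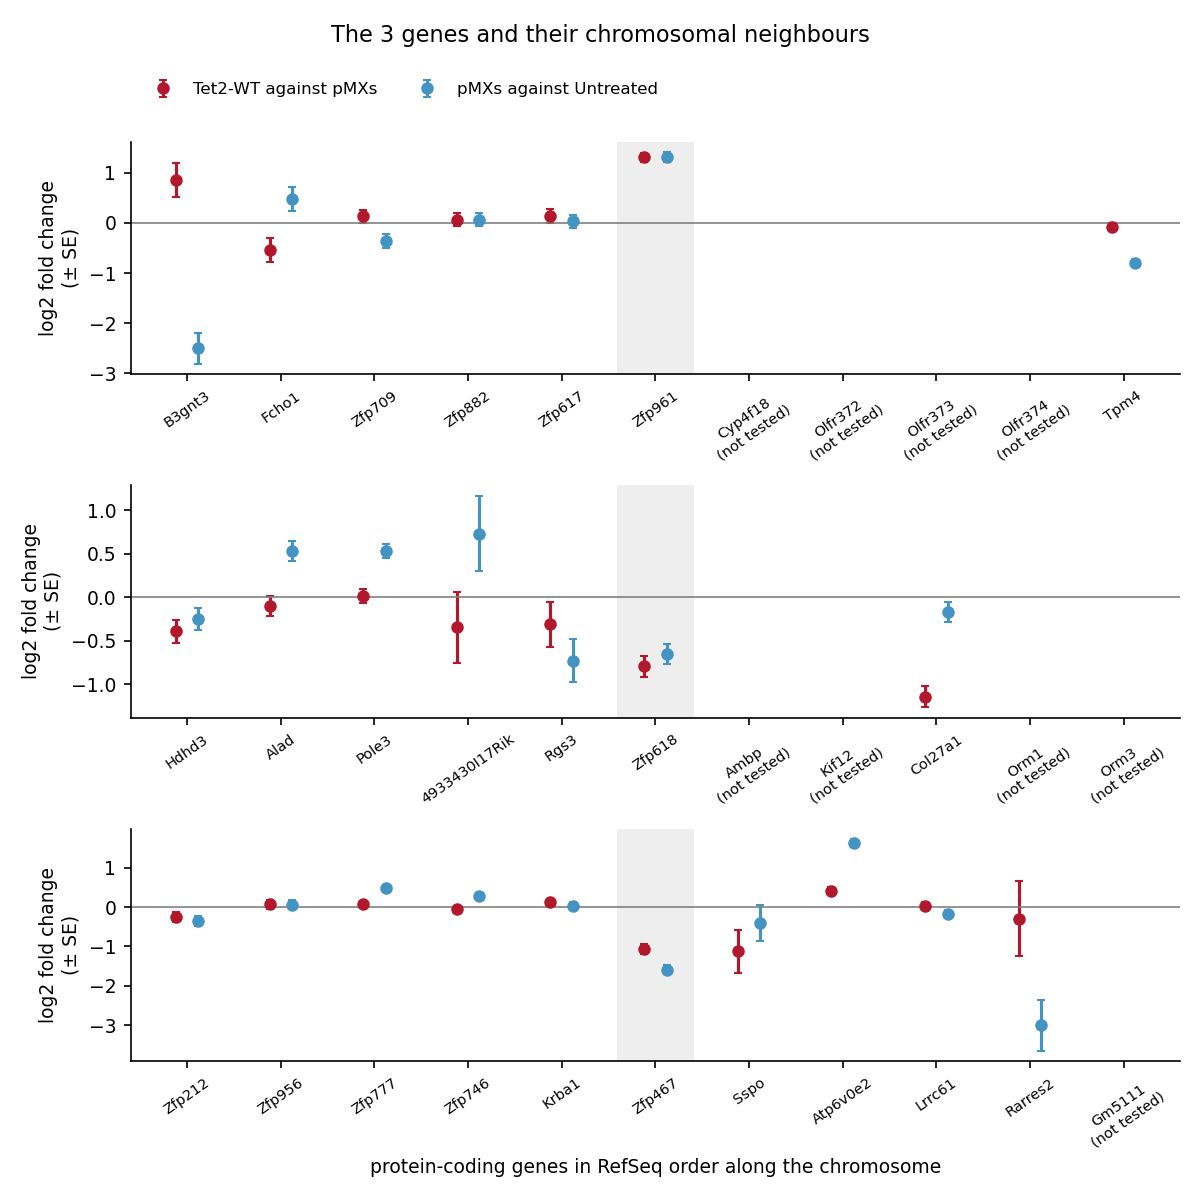
Log2 fold change with its standard error (vertical axis) for each gene and its 5 neighbours on each side, in gene order (horizontal axis), for Tet2-WT against pMXs and pMXs against Untreated. Zfp961 stands at 1.30 and 1.31 between neighbours that were not called with Tet2-WT, and Col27a1 near Zfp618 stands at -1.14.

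Marker genes of cell types moved with the same groups, and in bulk RNA fewer cells of a type cannot be told apart from less RNA per cell. The summed level of 16 fibroblast markers was 10881 to 12706 CPM in Tet2-WT, 14718 to 15906 in Tet2-E, 17103 to 19276 in pMXs and 40997 to 43048 CPM in Untreated libraries, with none of the 16 at 0 in any library. All 16 fell in pMXs against Untreated, where 35% of all genes fell, and 1 rose and 7 fell with Tet2-WT against pMXs (50% called against 12.5% of all genes), a count of 8 that was 5 without Tet2-WT replicate 1 or 2. Between Tet2-E and pMXs, 0 were called by edgeR, 1 by DESeq2 and 4 at an unadjusted p under 0.05. Col1a1 and Col1a2 made up most of these sums. The group order of the sums is that of the mean levels of Zfp467. Zfp618 was lower with both Tet2 vectors than with pMXs, but its libraries did not separate Tet2-WT from Tet2-E (4.50 and 4.62 CPM on average). The 10 pluripotent markers summed to 727 to 853 CPM in Tet2-WT, 567 to 685 in Tet2-E, 527 to 615 in pMXs and 1.85 to 4.53 CPM in Untreated libraries, mostly from L1td1 and Pou5f1 at day 5, and Zfp42 and Dppa5a had at most 8 and 2 reads at day 5. Pou5f1 is also one of the OKSM factors, and whole-gene counts cannot tell such RNA from that of the cell's own gene. With Tet2-WT against pMXs, L1td1 rose (0.69) and Lin28a (-1.11) and Esrrb (-1.09) fell, of 8 pluripotent markers tested. That is 37.5% called against 12.5% of all genes, and the count of 3 was 0 to 2 with 1 library left out. The group order of the mean sums of the pluripotent and of the macrophage markers is that of Zfp961, though within both lists some genes went the other way.

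The 14 epithelial markers summed to 392 to 613 CPM in Tet2-WT, 399 to 518 in Tet2-E, 472 to 627 in pMXs and 21.7 to 36.9 CPM in Untreated libraries. Cdh1 and Krt19 made up most of the day 5 sums. With Tet2-WT against pMXs, Krt18 (1.77, adjusted p = 0.000238) and Krt8 (1.08, adjusted p = 0.00224) rose and 0 fell, 14.3% against 12.5% of all genes. Both also rose against Tet2-E (1.33 and 1.04), 14.3% against 4.62% of all genes. With Tet2-E against pMXs, 0 of the 14 were called by edgeR. The 9 macrophage markers summed to 213 to 309 CPM in Tet2-WT, 93.5 to 127 in Tet2-E, 81.0 to 94.8 in pMXs and 5.99 to 6.91 CPM in Untreated libraries. In pMXs against Untreated, 3 of 6 tested rose, Laptm5 (8.21) and Cd68 (1.78) among them. The other 3 fell: Cd53 (-7.69), Lyz2 (-4.01) and Csf1r (-2.61). All 6 were thus called, against 70.1% of all genes. Between Tet2-WT and pMXs, 4 of 6 tested macrophage markers rose and 0 fell (66.7% against 12.5% of all genes), among them Itgam (3.18), Cd68 (1.72) and Laptm5 (1.65). Laptm5 made up most of the day 5 sums, and Ptprc, Adgre1 and Cd53 had at most 2, 1 and 2 reads in any day 5 library. The 7 endothelial markers summed to 78.4 to 88.0 CPM in Tet2-WT, 81.5 to 91.5 in Tet2-E, 76.5 to 89.6 in pMXs and 24.8 to 29.0 CPM in Untreated libraries. Tek made up most of the day 5 sums, at 73.9 CPM in pMXs and 3.34 CPM in Untreated cells. In pMXs against Untreated, Tek (4.47) and Kdr (1.09) rose and Esam (-2.23) and Flt1 (-1.93) fell, 80% of 5 tested against 70.1% of all genes. Kdr (-1.85) and Flt1 (-0.66) fell with Tet2-WT against pMXs, 40% against 12.5% of all genes. That count of 2 was 1 to 2 with 1 library left out. The part of cell makeup, feeder cells included, in the differences of the 3 genes was not tested.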

How the data were processed

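RNA was sequenced from 13 libraries with a stranded mRNA kit, per the labels' protocols, which also state that libraries were prepared in 2 sets without saying which was in which. The deposited table holds raw read counts per gene made by the authors. The submitters' processing notes name the build mm9 and the tools STAR 2.6.1a, SAMtools 1.7, bedtools 2.27.1, featureCounts 1.6.2, R 3.6.2 and DESeq2 1.26.0. Whether counting used strand is not given in the sources used here.

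Analysis used edgeR 4.0.16 and limma 3.58.1 under R 4.3.3. Of 24495 genes, filterByExpr (count minimum 10, total minimum 15) kept 14607. After TMM scaling, the 13 libraries entered 1 quasi-likelihood model (robust, group means, no block), from which all 4 comparisons were taken. P-values were adjusted by Benjamini-Hochberg over the 14607 genes of each comparison, and rose, fell and called mean an adjusted p under 0.05. The SE of a log2 fold change is its size divided by the square root of F, intervals cover 95%, and the biological coefficient of variation was 0.102. Total counts of 14052646 to 26265382 per library left 46 reads for the least counted value of the 3 genes. The procedure was tested on simulated data.

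The 3 genes and all lists were chosen with earlier results of these data known. Named genes were the 3 genes, Tet2, neighbours called in a comparison, the largest changes of a list among genes reaching 1 CPM in a group, up to 3 rising and 3 falling (4 and 4 for the Zfp-numbered family, or the 2 smallest p-values if none passed), and the 5 genes with the highest correlation of log2 CPM (prior count 2). Of these, 1 gene is not reported here. Trim28, Setdb1, Uhrf2, Sall4 and Klf4 values were added after they were seen, as were the marker genes named for their read counts. Promoter windows came from RefSeq (GRCm38.p6), and exon lengths from GENCODE M21 by symbol. No protein table was used here, so the planned second definition of the family by protein sequence was not run.

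Replicate numbers 1, 2, 100 and 250 recur across groups, taken from the sample titles. Residuals after group means correlated at 0.121 to 0.339 in 8 same-number pairs from day 5, at 0.0784 to 0.363 in 8 pairs of 1 with 2 or 100 with 250, and at -0.42 to -0.05 in the other 17 pairs. Same-number pairs with Untreated libraries gave -0.04 to 0.171. By these values the day 5 libraries were linked at least as much by class (1 and 2, 100 and 250) as by number, and the Untreated ones by neither. The replicate block and a class term were therefore both run, each fitted on all 13 libraries and read for all 4 comparisons. The main model has neither. Alternatives were DESeq2 1.42.0, RLE size factors, other filters, a replicate block, a term for the number class, fits within a class or of 2 groups, and each library left out in turn.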

Additional observations from a re-analysis of the deposited data

Results flagged for a closer look

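Tet2 RNA in the Tet2-E group stood out in 1 of its 4 libraries, replicate 100, at 580.6 CPM, where the nearest library was at 1299 CPM. The gap was 0.873 of the group's range, above Dixon's 95% critical value for 4 samples. It was the only 1 of 10 groups of 4 values looked at to pass, and chance alone flags about 1 in 20. In that library Zfp961 was at 34.6 CPM, Zfp618 at 5.38 CPM, the highest of the 4, and Zfp467 at 3.77 CPM. Without it, the log2 fold change of Tet2-E against pMXs was 0.37 for Zfp961, -0.84 for Zfp618 and -0.76 for Zfp467. Whether the lower vector RNA bears on the level of Zfp618 was not tested.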

How the results depend on the processing

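Under all 15 or 16 alternatives the log2 fold changes of the 3 genes kept their direction, except that of Zfp618 between Tet2-WT and Tet2-E, which ran from -0.09 to 0.05. The highest adjusted p in pMXs against Untreated was 0.00667 (Zfp618). Counts of genes called moved more. For Tet2-E against pMXs the 7 genes became 138 with DESeq2, 17 with no filter, 0 with only the 2 groups, 93 with the replicate block, 152 with a term for the number class, 103 within numbers 1 and 2, 83 within 100 and 250, and 1 to 50 with 1 library left out. Tet2-WT against Tet2-E (675) became 1052 with the class term, 1015 within numbers 1 and 2 and 335 to 675 with 1 library left out, and Tet2-WT against pMXs (1830) became 1097 to 1821. For the zinc finger family, Tet2-WT against pMXs (14) gave 26 with only 2 groups, 5 within numbers 1 and 2 and 4 to 10 with 1 left out. Tet2-E against pMXs (0) gave 1 with DESeq2, 1 with the replicate block and 3 with the class term, and Tet2-WT against Tet2-E (5) gave 1 within 100 and 250 and 1 to 4 with 1 left out. Counts of the small lists moved too, some by more than 1 gene. With DESeq2, adipogenic calls for Tet2-E were 2, LIF and STAT3 calls 1, and for Tet2-WT against Tet2-E KRAB machinery calls were 1, LIF and STAT3 calls 2 and osteogenic calls 2. LIF and STAT3 calls for Tet2-E were 1 with no filter, and 0 with RLE size factors or with only 2 groups. Osteogenic calls between the vectors were 1 with each of these 3 settings. With only 2 groups, the adipogenic call between the vectors and the Tet2 call of the 5hmC list for Tet2-E became 0. With the replicate block or class term, Tet2-WT against pMXs gave 1 for the 5hmC and 1 for the adipogenic list, Tet2-E gave 1 for LIF and STAT3, and between the vectors 3 were called for LIF and STAT3 and 3 for the osteogenic list, with 1 for KRAB machinery under the class term. Within numbers 1 and 2, Tet2-WT against pMXs gave 4 (5hmC), 0 (adipogenic) and 3 (LIF and STAT3), Tet2-E gave 1 (adipogenic) and 1 (osteogenic), and between the vectors 1 (5hmC), 2 (LIF and STAT3) and 2 (osteogenic). Within 100 and 250 the counts were 4 (5hmC), 1 (adipogenic) and 1 (osteogenic) for Tet2-WT, 1 (LIF and STAT3) for Tet2-E, and 0 (adipogenic), 2 (LIF and STAT3) and 1 (osteogenic) between the vectors. Leaving out 1 library gave, for Tet2-WT against pMXs, 1 to 2 (5hmC), 0 to 1 (adipogenic), 1 to 2 (KRAB machinery), 3 to 5 (LIF and STAT3) and 0 to 4 (osteogenic), for Tet2-E 0 to 1 (LIF and STAT3), and between the vectors 0 to 1 each for the adipogenic, KRAB, LIF and STAT3 and osteogenic lists. Of the 5 genes most like each, Spearman correlation shared 0 for Zfp961, 1 for Zfp618 and 0 for Zfp467, and the day 5 libraries 0, 2 and 2. The cause of these changes was not tested. Zfp467 and Zfp618, at 46 to 296 reads in most libraries, carry more counting error than Zfp961.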
